A study of Mus musculus with 18 samples.

Results

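Small RNA from the livers of inbred C57BL/6J mice, wild type in genotype, was sequenced, and the comparison described here is that of the HF diet with the LF diet in mice given neither intervention. Its members are 6 of 18 libraries, 3 labelled HF and 3 labelled LF. The regimens began at 5 weeks of age and the livers were taken at 62 weeks. LF and HF are read as low-fat and high-fat diet. The remaining 12 libraries come from mice of the same strain on LF+CR, LF+Ex, HF+CR and HF+Ex, with CR read as calorie restriction and Ex as exercise; they lend their spread to the test and return where the diet difference is compared between regimens. Of 758 listed miRNAs, 351 reached 5 RPM in at least 3 of the 18 libraries and were tested; RPM is the number of reads scaled to a fixed library total. Among the 351, 318 reached that level in at least 3 of the 6 HF and LF libraries, and 7 were tested only through libraries outside these groups. The labels do not say whether the libraries of a group are separate animals, so p-values measure how far these samples spread, possibly for technical reasons alone.

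A miRNA is a short RNA cut from either arm, 5p or 3p, of a hairpin, and it lowers the output of messenger RNAs that pair with its seed, bases 2 to 8. miRNAs with a common seed share most predicted targets, and miRNAs of neighbouring hairpins are often made from a common transcript. In liver, miR-122-5p dominates hepatocytes, miR-33-5p lies inside the gene of the sterol regulator SREBP2 and represses the cholesterol exporter ABCA1, and miR-148a-3p represses the LDL receptor.

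The sequences on which the comparison turns are the mature strands of RefSeq (GRCm38.p6), written 5′ to 3′ with the seed in capitals. The first set is shown because it holds the called miRNA and its opposite arm, and then 3 miRNAs of a shared seed, of which miR-148a-3p had a diet difference that differed between regimens.
miR-33-5p: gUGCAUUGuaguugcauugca
miR-33-3p: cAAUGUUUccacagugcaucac
miR-148a-3p: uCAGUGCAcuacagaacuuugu
miR-148b-3p: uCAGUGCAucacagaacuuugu
miR-152-3p: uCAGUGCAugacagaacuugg

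The second set is shown because members of a common seed stood on opposite sides of 0. The first 3 share AUUGCAC and the last 2 share CCCUGAG.
miR-32-5p: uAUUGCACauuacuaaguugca
miR-92a-3p: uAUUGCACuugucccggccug
miR-25-3p: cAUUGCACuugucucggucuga
miR-351-5p: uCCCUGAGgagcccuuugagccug
miR-125a-5p: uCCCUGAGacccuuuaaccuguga

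A last set holds other miRNAs with the smallest p or the largest differences. Of these, miR-132-3p and miR-212-3p share the seed AACAGUC.
miR-503-5p: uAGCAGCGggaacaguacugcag
miR-450a-5p: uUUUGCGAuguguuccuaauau
miR-210-3p: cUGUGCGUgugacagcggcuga
miR-132-3p: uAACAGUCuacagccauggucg
miR-212-3p: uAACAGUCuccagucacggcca
miR-155-5p: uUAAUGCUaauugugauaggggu
miR-205-5p: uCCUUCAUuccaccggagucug
let-7e-5p: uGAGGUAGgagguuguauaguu
miR-99b-5p: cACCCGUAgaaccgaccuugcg

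miR-33-5p was the single miRNA that passed the test, and it was higher in HF. A miRNA was called at a limma adjusted p under 0.05 (Benjamini-Hochberg over the 351 miRNAs, two-sided), and 0.285% of the miRNAs tested were called. Its level was 6.35, 5.14 and 5.57 RPM in LF 1, LF 2 and LF 3, and 13.2, 21.2 and 24.2 RPM in HF 1, HF 2 and HF 3. Every HF library lay above every LF library, and HF 1 was the lowest of the HF libraries. The ratio of the means was 3.43, and the log2 difference, taken on log2(RPM + 1) as all differences here, was 1.58 (95% interval 1.02 to 2.14; limma adjusted p = 0.00715). It no longer passed when LF 2 (adjusted p = 0.0517), HF 2 (0.0611) or HF 3 (0.0783) was omitted, nor when the fit held the HF and LF libraries alone (0.105). The hairpin lies on chromosome 15, 82198122 to 82198190, plus strand (GRCm38), in an intron of Srebf2 read from the same strand.

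The opposite arm, miR-33-3p, which is cut from the same hairpin, stood at 4.92, 1.95 and 5.02 RPM in LF and at 5.32, 5.47 and 6.01 RPM in HF. The HF libraries lay above the LF libraries by a small margin, apart from the low LF 2. Its difference was 0.48 (SE 0.32, limma adjusted p = 0.534), and 0.14 without LF 2. The log2 ratio of the 5p to the 3p arm was 0.50 ± 0.49 in LF and 1.60 ± 0.37 in HF (SD, n = 3), a change of 1.10 (SE 0.32) that did not pass over the 100 hairpins with both arms tested (limma adjusted p = 0.138).

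Beyond miR-33-5p no difference passed the test after adjustment for the number of miRNAs. The median over the 351 miRNAs was 0.05, 259 (73.8%) differed by less than 0.5 on the log2 scale, and 22 differed by at least 1, 9 of them higher and 13 lower. The median SE was 0.28, and the median 95% interval reached 0.60 to either side of the difference, before any adjustment for the number of miRNAs. The second smallest p gave an adjusted p of 0.166. An unadjusted p under 0.05 was reached by 41 miRNAs (11.7%), 24 higher in HF (6.84%) and 17 lower (4.84%); these shares are the background for the counts of groups below. The 3 HF and 3 LF libraries did not overlap for 67 miRNAs (19.1%), with HF above for 37 (10.5%) and below for 30 (8.55%).

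**Figure D1:**
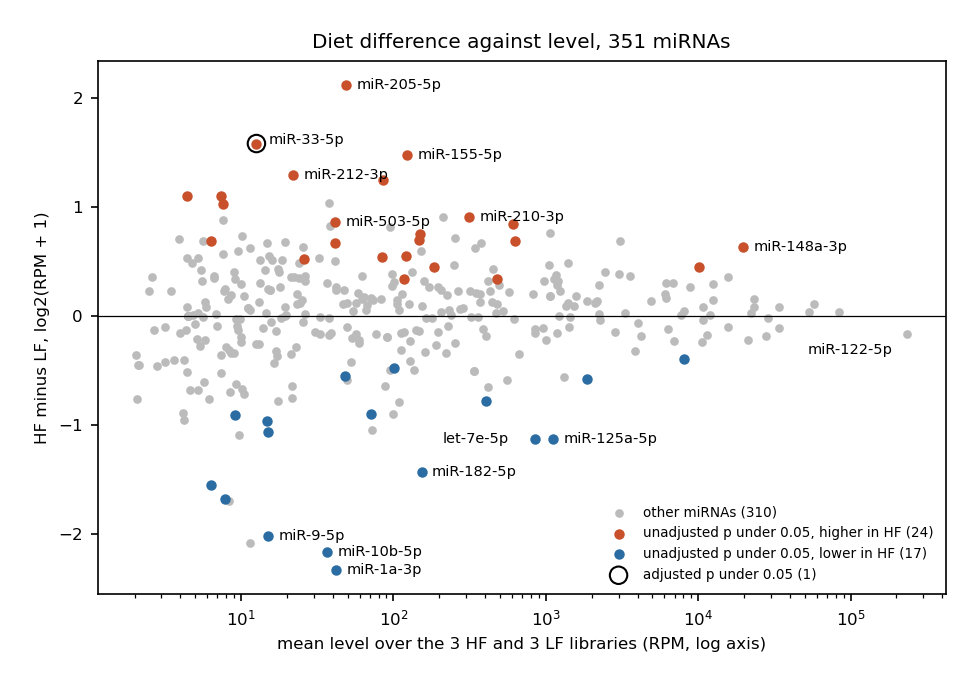
Each point is a tested miRNA, with its mean level over the 6 HF and LF libraries in RPM (log axis) across and its HF minus LF difference on log2(RPM + 1) up. Colours mark an unadjusted p under 0.05, 24 higher and 17 lower in HF, and the ring marks miR-33-5p, the 1 miRNA called; the largest differences in either direction lie among low miRNAs.

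Single libraries carried much of the spread. Within the 24 miRNAs higher at an unadjusted p under 0.05, selection places the highest value in an HF library. HF 1, HF 2 and HF 3 held it for 3, 18 and 3. Over all 351 miRNAs they held it for 18, 117 and 35, so HF 2 led there too. Within the 17 that were lower, LF 1, LF 2 and LF 3 held the highest value for 10, 5 and 2. Over all 351 these libraries held it for 132, 18 and 31, so LF 1 led in both. HF 2 was also the shallowest of these libraries, with 4.05 M reads on listed miRNAs (M, megareads), where the others held 6.28 to 8.88 M. Leaving out HF 2 lowered the 41 miRNAs to 18. The part of depth in these differences was not tested.

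Among miRNAs with a role in sterol and lipid handling, 27 of 30 on the list were tested, 16 stood above 0 and 11 below, and the median was 0.13. Without LF 2 the list turned to 12 above and 15 below, with a median of -0.06. Over all 351 miRNAs 57.5% (202) stood above 0 and 42.5% (149) below, but this balance went with the scaling and with LF 2: it was 174 above and 177 below after size-factor rescaling and 161 above and 190 below without LF 2. The 1 called on the list was miR-33-5p. miR-148a-3p stood at 15739, 18107 and 12748 RPM in LF and at 28463, 20913 and 22733 RPM in HF. All HF libraries were above all LF libraries, with HF 1 the highest. The difference was 0.63 (SE 0.22), and it did not pass over all miRNAs (limma adjusted p = 0.307). Its hairpin is on chromosome 6, 51269812 to 51269910, minus strand.

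The other carriers of the seed CAGUGCA stood on the same side. miR-148b-3p, from an intron of Copz1, was at 535, 413 and 502 RPM in LF and 682, 811 and 841 RPM in HF, without overlap (0.69, SE 0.26, limma adjusted p = 0.328). miR-152-3p, from an intron of Copz2, was at 2056, 1883 and 2098 RPM in LF and 2256, 2643 and 2489 RPM in HF, again without overlap (0.29, SE 0.20, limma adjusted p = 0.572). The sum over this seed was 18027 ± 2542 RPM in LF and 27277 ± 3671 RPM in HF (SD, n = 3). Its difference of 0.60 (SE 0.19) did not pass over the 234 seed families tested (limma adjusted p = 0.296).

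Other lipid-related miRNAs lay on both sides. miR-335-5p, from an intron of the imprinted gene Mest, which is known for its rise in expanding fat tissue, was at 121, 89.8 and 126 RPM in LF and 226, 160 and 164 RPM in HF (0.70, SE 0.29, limma adjusted p = 0.352). The groups did not overlap for it. miR-10b-5p, which represses cholesterol exporters in macrophages, was at 43.0, 41.2 and 86.6 RPM in LF and 9.11, 3.81 and 36.7 RPM in HF. It was lower in every HF library, but HF 3 came close to the lowest LF library, and the difference of -2.16 had an SE of 0.72 (limma adjusted p = 0.307). miR-19b-3p, a member of the miR-17 cluster, was at 10275, 9189 and 7958 RPM in LF and 7292, 6275 and 7234 RPM in HF (-0.39, SE 0.14, limma adjusted p = 0.320), also without overlap.

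The miRNAs miR-34a-5p, a p53 target, and miR-21a-5p, an abundant miRNA linked to inflammation and fibrosis, overlapped between the diets, with differences of 0.40 (SE 0.50) and 0.04 (SE 0.24). That of miR-34a-5p ranged from 0.08 without LF 2 to 0.80 without LF 1. For miR-21a-5p the sign turned after size-factor rescaling (-0.02) and without LF 3 (-0.20) or HF 1 (-0.13). Of the miRNAs tied to insulin and glucose handling, 24 of 25 were tested, 16 stood above 0 and 8 below, with a median of 0.13 (0.08 without HF 2, 0.21 without HF 1). None was called, and none had an unadjusted p under 0.05. Within that list miR-103-3p and miR-107-3p, which lower insulin sensitivity in liver, differed by 0.15 (SE 0.17) and 0.30 (SE 0.19).

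**Figure D2:**
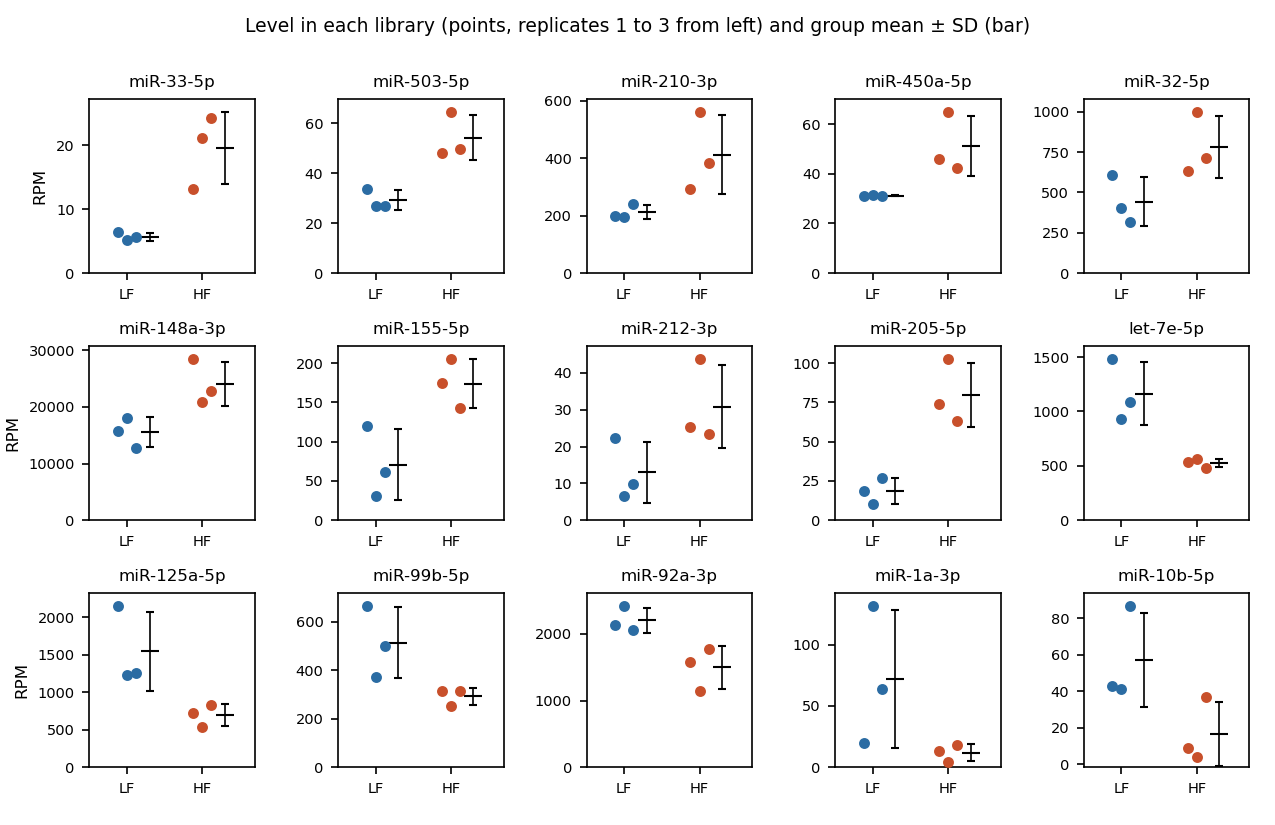
Levels in RPM of 15 named miRNAs in the 3 LF and 3 HF libraries, as points in the order of replicates 1 to 3, with the group mean and SD as a bar; each panel has its own linear axis. miR-33-5p (5.14 to 6.35 RPM in LF, 13.2 to 24.2 RPM in HF) is the 1 called; the HF bar of miR-10b-5p extends below 0 because its SD exceeds its mean.

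The differences were also read by genomic cluster, and 4 clusters are described in detail. The lowest median, -1.08, was that of miR-379-5p and miR-411-5p on chromosome 12, in the imprinted Dlk1-Dio3 locus. Of the list of that locus, 13 of 13 tested stood below 0 (42.5% of all miRNAs) with a median of -0.72. For 0 of them did the diets not overlap, and 0 were called. Without LF 1 the median was -0.39, with 2 above 0 and 11 below. Members of 1 locus are not independent. The cluster of let-7e, miR-99b and miR-125a spans chromosome 17, 17830194 to 17830879, plus strand, in the Spaca6 gene. let-7e-5p, a member of the growth-restraining let-7 family, was at 1483, 927 and 1085 RPM in LF and 533, 559 and 482 RPM in HF (-1.12, SE 0.33, limma adjusted p = 0.307). miR-125a-5p, a relative of the worm gene lin-4, was at 2148, 1230 and 1256 RPM in LF and 729, 530 and 824 RPM in HF (-1.13, SE 0.39, limma adjusted p = 0.307). miR-99b-5p, of a family that targets mTOR, was at 665, 373 and 502 RPM in LF and 313, 252 and 313 RPM in HF (-0.78, SE 0.33, limma adjusted p = 0.352). The 3 opposite arms were low, between 5.24 and 19.6 RPM, and stood at -0.62 for let-7e-3p, -0.70 for miR-125a-3p and -0.90 for miR-99b-3p. All 6 arms had every HF library below every LF library, where 8.55% of all miRNAs did, and 4 of the 6 had an unadjusted p under 0.05; none was called. The 6 arms come from a single stretch of 3 hairpins and are not independent. Their median was -0.84. It was -0.56 without LF 1, the highest LF library for all 6, and -1.05 without LF 2.

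The X-linked cluster of miR-322, miR-503, miR-351, miR-542 and miR-450 (chromosome X, 53047997 to 53054349, minus strand) encodes regulators of the cell cycle. In it 8 of 9 tested members stood above 0 (57.5% of all miRNAs), with a median of 0.37. By limma 4 were higher at an unadjusted p under 0.05 (6.84% of all miRNAs), and none was called. These members of 1 locus are not independent. miR-503-5p, which represses G1 cyclins, was at 33.8, 27.0 and 26.8 RPM in LF and 48.1, 64.5 and 49.6 RPM in HF (0.86, SE 0.22, limma adjusted p = 0.166). It was called in 2 of 17 alternatives, 1 of them after size-factor rescaling (0.81, limma adjusted p = 0.0398). Leaving out a single HF or LF library gave 0 calls of it in 6 fits. miR-450a-5p was at 31.1, 31.4 and 30.9 RPM in LF and 46.0, 65.0 and 42.4 RPM in HF (0.67, SE 0.21, limma adjusted p = 0.307). The LF values of miR-450a-5p were nearly equal, and the HF libraries lay above them with HF 2 the highest. miR-351-5p (68.9, 58.8 and 78.8 RPM in LF, 94.2, 95.7 and 112 RPM in HF) and miR-542-5p (21.9, 18.6 and 22.0 RPM in LF, 23.2, 41.6 and 28.5 RPM in HF) were also without overlap, at 0.54 and 0.52 (0.29 for miR-542-5p without HF 2). The most abundant member, miR-322-5p, overlapped (496 to 555 RPM in LF, 553 to 669 RPM in HF; 0.22, SE 0.15). The 1 member below 0 was miR-450b-3p at -0.31 (SE 0.25).

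The pair miR-212 and miR-132 is processed from 1 transcript on chromosome 11 (75173388 to 75173747, plus strand) and induced by CREB in other cells. Of its arms, which are not independent, 4 of 4 stood above 0 (57.5% of all miRNAs). miR-212-3p was at 22.4, 6.67 and 9.82 RPM in LF and 25.4, 43.8 and 23.4 RPM in HF (1.30, SE 0.49, limma adjusted p = 0.331). miR-132-3p was lower, at 2.85, 2.09 and 2.18 RPM in LF and 4.40, 9.04 and 5.86 RPM in HF (1.10, SE 0.45, limma adjusted p = 0.352). Neither overlapped between the diets, although LF 1 came near the HF range for miR-212-3p. In 1 of 16 alternatives, that without LF 1 and HF+CR 3 together, miR-212-3p was called (1.75, limma adjusted p = 0.00697). It was called in 0 of the 6 fits that left out a single HF or LF library. The sum over the shared seed AACAGUC was 15.3 ± 8.75 RPM in LF and 37.3 ± 13.4 RPM in HF (SD, n = 3), a difference of 1.30 (SE 0.47, limma adjusted p = 0.296).

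The cluster of miR-183, miR-96 and miR-182 (chromosome 6, 30165918 to 30169737, minus strand) holds miRNAs of sensory cells that are also induced by SREBP2. Of its members, which are not independent, 3 of 3 stood below 0 (42.5% of all miRNAs), with a median of -1.04. miR-182-5p was at 486, 95.4 and 130 RPM in LF and 53.0, 62.6 and 91.1 RPM in HF (-1.43, SE 0.50, limma adjusted p = 0.307). LF 1 was far above the rest for all 3 members, and without it the median was -0.32. LF 1 was also the highest library for the summed epithelial list, which holds miR-182-5p itself; the part of epithelial cells in this difference was not tested.

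**Figure D3:**
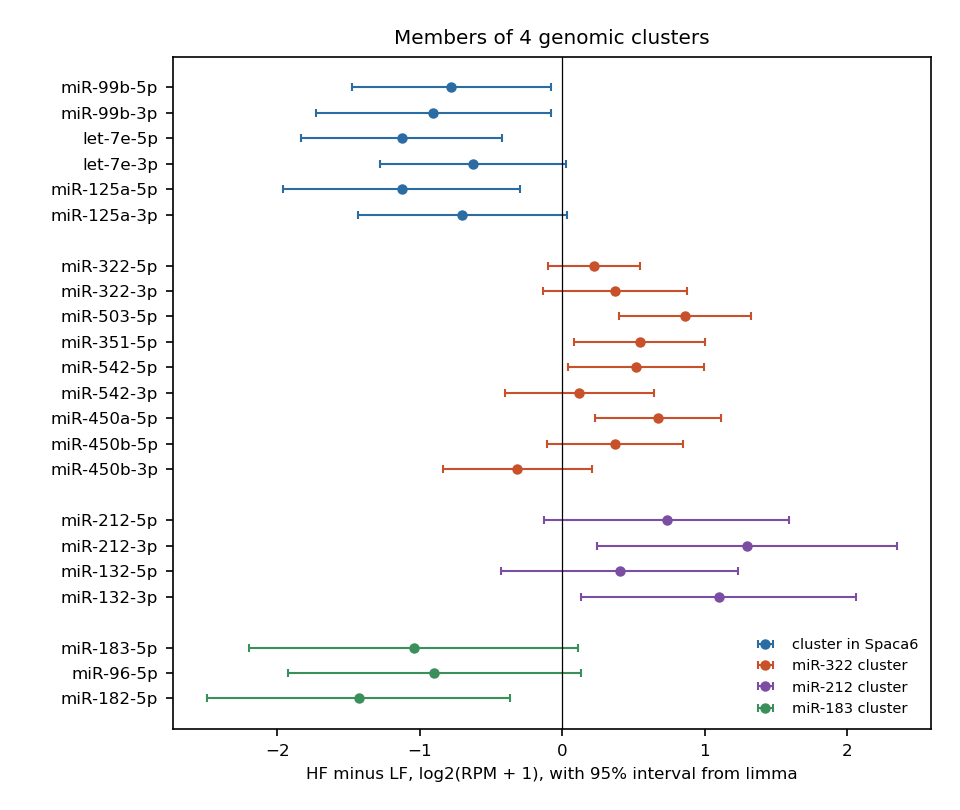
HF minus LF difference on log2(RPM + 1) for each tested arm of 4 genomic clusters, with the 95% interval from limma as a bar. The 6 arms of the Spaca6 cluster lie between -1.13 and -0.62, and 8 of 9 members of the miR-322 cluster lie above 0.

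miRNAs with a common seed did not always lie on the same side. Of the seed AUUGCAC, miR-32-5p, from an intron of Tmem245 on chromosome 4 (56895229 to 56895298, minus strand), was at 610, 402 and 316 RPM in LF and 631, 999 and 711 RPM in HF (0.84, SE 0.25, limma adjusted p = 0.307). miR-92a-3p, cut from the clusters of miR-17 and miR-106a, was at 2125, 2414 and 2064 RPM in LF and 1579, 1145 and 1771 RPM in HF (-0.57, SE 0.23, limma adjusted p = 0.341). Neither overlapped between diets, 1 being above and 1 below. miR-25-3p, from Mcm7, overlapped (607 to 934 RPM in LF, 406 to 736 RPM in HF; -0.35, SE 0.40), and its difference ranged from -0.53 without HF 3 to -0.17 without LF 1 and -0.11 without HF 2. The sum over the seed, 3386 ± 308 RPM in LF and 2869 ± 336 RPM in HF (SD, n = 3), differed by -0.24 (95% interval -0.63 to 0.15).

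Of the seed CCCUGAG, miR-351-5p at 0.54 and miR-125a-5p at -1.13 also stood apart. The most abundant carrier, miR-125b-5p (named after its values were seen), at 6631 ± 847 RPM in LF and 6083 ± 289 RPM in HF (SD, n = 3), differed by -0.12 (SE 0.20). The seed sum differed by -0.26 (95% interval -0.70 to 0.18). The let-7 seed GAGGUAG is carried by 10 listed miRNAs, and its sum was 138290 ± 4764 RPM in LF and 127526 ± 1090 RPM in HF (SD, n = 3), a difference of -0.12 (95% interval -0.33 to 0.09). Over all 234 seed families 1 was called (0.427%), the family of miR-33-5p, which has no other listed carrier (limma adjusted p = 0.00395), and 26 (11.1%) had an unadjusted p under 0.05.

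Of the remaining named higher miRNAs, miR-210-3p, miR-155-5p and miR-205-5p are known for responses to oxygen or inflammatory signals, or as markers of epithelia. miR-210-3p, induced by HIF1A in low oxygen, was at 200, 195 and 240 RPM in LF and 292, 561 and 384 RPM in HF. The HF libraries lay above the LF libraries, with HF 2 highest (0.91, SE 0.24, limma adjusted p = 0.166). Its hairpin is on chromosome 7, 141221384 to 141221493, minus strand. miR-155-5p, a product of activated leukocytes from an exon of Mir155hg (chromosome 16, 84714140 to 84714204, plus strand), was at 120, 31.1 and 61.3 RPM in LF and 174, 205 and 142 RPM in HF. It did not overlap (1.47, SE 0.54, limma adjusted p = 0.320). It was called in 1 of 17 alternatives, that without LF 1 and HF+CR 3 together (1.95, limma adjusted p = 0.00697). It was called in 0 of the 6 fits that left out a single HF or LF library. miR-205-5p, a miRNA of squamous and other epithelia (chromosome 1, 193507463 to 193507530, minus strand), had the largest positive difference among the 351. It was at 18.4, 10.2 and 27.1 RPM in LF and 73.7, 103 and 63.2 RPM in HF, without overlap (2.12, SE 0.70, limma adjusted p = 0.307). On the epithelial and biliary list, which holds it, 8 of 10 tested members stood below 0, with a median of -0.61.

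Several further miRNAs stood higher at an unadjusted p under 0.05. miR-22-3p, an abundant liver miRNA, was at 8121, 7611 and 9777 RPM in LF and 9763, 14404 and 11019 RPM in HF, where LF 3 just exceeded HF 1 (0.45, SE 0.19, limma adjusted p = 0.352; 0.29 without HF 2). miR-193a-3p, on the hepatocyte list, overlapped through LF 3 (156 RPM against 147 RPM in HF 3; 0.75, SE 0.29; 0.47 without HF 2). miR-5126, which is also on the list of entries that resemble fragments of other RNAs, did not overlap (3.34 to 5.46 RPM in LF, 9.40 to 11.2 RPM in HF; 1.10, SE 0.39, limma adjusted p = 0.307). miR-21a-3p, the minor arm of miR-21a, was at 103, 31.8 and 28.4 RPM in LF and 94.9, 172 and 80.2 RPM in HF, with LF 1 inside the HF range (1.25, SE 0.58).

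Among lower miRNAs, several are known from cells other than hepatocytes. miR-1a-3p, a muscle miRNA, was at 20.0, 132 and 64.2 RPM in LF and 13.2, 4.28 and 18.2 RPM in HF (-2.32, SE 0.78, limma adjusted p = 0.307), the largest negative difference. miR-133a-3p, its partner in muscle, was at 2.85, 14.2 and 13.6 RPM in LF and 2.89, 0.95 and 3.55 RPM in HF (-1.54, SE 0.66). Both were low in LF 1 among the LF libraries. The summed muscle list was 28.5, 155 and 87.3 RPM in LF and 19.4, 8.33 and 27.0 RPM in HF.

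miR-9-5p, a neural miRNA, was at 10.1, 48.9 and 16.9 RPM in LF and 3.49, 3.09 and 7.25 RPM in HF (-2.01, SE 0.75, limma adjusted p = 0.328). miR-124-3p, the defining miRNA of neurons, was at 3.63, 46.0 and 11.8 RPM in LF and 2.58, 2.62 and 1.85 RPM in HF (-2.08, and -1.21 without LF 2). LF 2 was the highest library for miR-1a-3p, miR-133a-3p, miR-9-5p and miR-124-3p. The neuronal list that holds the last 2 did not move one way: 5 of 10 tested members stood above 0 and 5 below, with a median of -0.04. Its members above 0 include miR-212-3p (1.30), miR-132-3p (1.10) and miR-212-5p (0.73). The list summed to 561, 756 and 591 RPM in LF and 517, 594 and 606 RPM in HF, which overlap. The part of muscle tissue in the diet difference was not tested. miR-708-5p, from an intron of the teneurin gene Tenm4, was at 19.3, 8.62 and 9.38 RPM in LF and 1.37, 3.33 and 5.09 RPM in HF (-1.67, SE 0.70, limma adjusted p = 0.352), without overlap. miR-1247-5p was at 21.6, 15.2 and 23.2 RPM in LF and 8.05, 10.9 and 10.0 RPM in HF (-0.96, SE 0.34, limma adjusted p = 0.307), also without overlap.

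The labelled tissue was checked against markers of liver cell types. The hepatocyte markers miR-122-5p, miR-192-5p and miR-194-5p were all among the 10 most abundant miRNAs of the 6 libraries. miR-122-5p was at 249116 ± 38274 RPM in LF and 221761 ± 18500 RPM in HF (SD, n = 3), a difference of -0.16 (95% interval -0.44 to 0.12). Its share of the listed RPM was 25.7 ± 3.93% in LF and 23.0 ± 1.88% in HF (exact permutation test, two-sided p = 0.3; 3 against 3 cannot go below 0.1). miR-192-5p and miR-194-5p differed by 0.08 and 0.04; both turned to -0.06 and -0.04 without LF 1, and miR-194-5p to -0.02 after size-factor rescaling. Over the 20 hepatocyte miRNAs tested, 13 stood above 0 and 7 below, with a median of 0.03 that turned to -0.02 after rescaling; without LF 1 it was 7 above and 13 below, with a median of -0.05. The 10 most abundant miRNAs differed by at most 0.18 in either direction. In bulk tissue, fewer cells of a type and less of a miRNA per cell cannot be told apart.

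Leukocyte and Kupffer cell miRNAs had 10 of 13 above 0, 3 below and a median of 0.67, where 57.5% of all miRNAs stood above 0. Every HF library lay above every LF library for 1 member and below for 1, against 10.5% and 8.55% of all miRNAs. The arms of the listed hairpin miR-511 stood at -0.36 (5p) and 0.11 (3p). miR-511-5p was thus 1 of the 3 below 0, while the members named next all stood above 0. Also tested but not described singly were miR-146a-5p, miR-146b-5p and the defining marker miR-150-5p, so the named members do not stand for the list. The list summed to 9133, 2970 and 4531 RPM in LF. In HF its sums were 6977, 8810 and 6846 RPM. LF 1 was above every HF library, and LF 2 and LF 3 were below every HF library. miR-142-3p, the defining blood cell miRNA, was at 4247, 1345 and 1883 RPM in LF and 3036, 4377 and 3403 RPM in HF (0.69, SE 0.35, limma adjusted p = 0.466). Its difference was 1.16 without LF 1 and 0.33 without LF 2. miR-223-3p, of neutrophils and macrophages, overlapped at 0.47 (SE 0.49) and turned to -0.05 without LF 2. The list's median was 0.99 without LF 1 and 0.20 without LF 2. Without LF 1 and HF+CR 3 together, 3 of the 13 were called: miR-155-5p, miR-142-3p (1.16, limma adjusted p = 0.0247) and its opposite arm miR-142-5p (1.25, limma adjusted p = 0.0325). Over all 351 miRNAs 7 were called in that fit. LF 1 held the highest sum of this list, so leaving it out favours higher differences for its members. Without LF 1 alone, 0 of the 13 were called. HF+CR 3 lends only its spread to this comparison. The higher miR-155-5p values thus stood beside leukocyte markers, a list that includes miR-155-5p, that were low in LF 2 and LF 3; the part of leukocyte content was not tested.

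LF 1 also stood apart in other marker lists. Epithelial and biliary miRNAs had 8 of 10 below 0 and a median of -0.61, and summed to 7667, 2373 and 3673 RPM in LF and 3124, 3635 and 3402 RPM in HF; without LF 1 the median was 0.02. With all libraries, the 2 members above 0 were miR-205-5p (2.12) and miR-31-5p (0.48). miR-200b-3p, a defining member, was at 1475 RPM in LF 1, 257 and 472 RPM in LF 2 and LF 3, and 367 to 392 RPM in HF. Stellate and mural miRNAs had a median of -0.01 (0.44 without LF 1), endothelial miRNAs 0.09 (0.03 to 0.17 with a library left out) and erythroid miRNAs -0.32 (-0.78 to -0.06). Entries that resemble fragments of other RNAs, a sign of RNA quality, had 5 of 5 above 0 with a median of 0.68. The median was 0.37 with 4 of 5 above 0 without HF 2, 0.43 without LF 1 and 1.15 without HF 3. They summed to 110, 88.8 and 107 RPM in LF and 105, 278 and 125 RPM in HF, and 110 RPM of the HF 2 sum was miR-690. The part of RNA quality in the values of HF 2 was not tested.

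**Figure D4:**
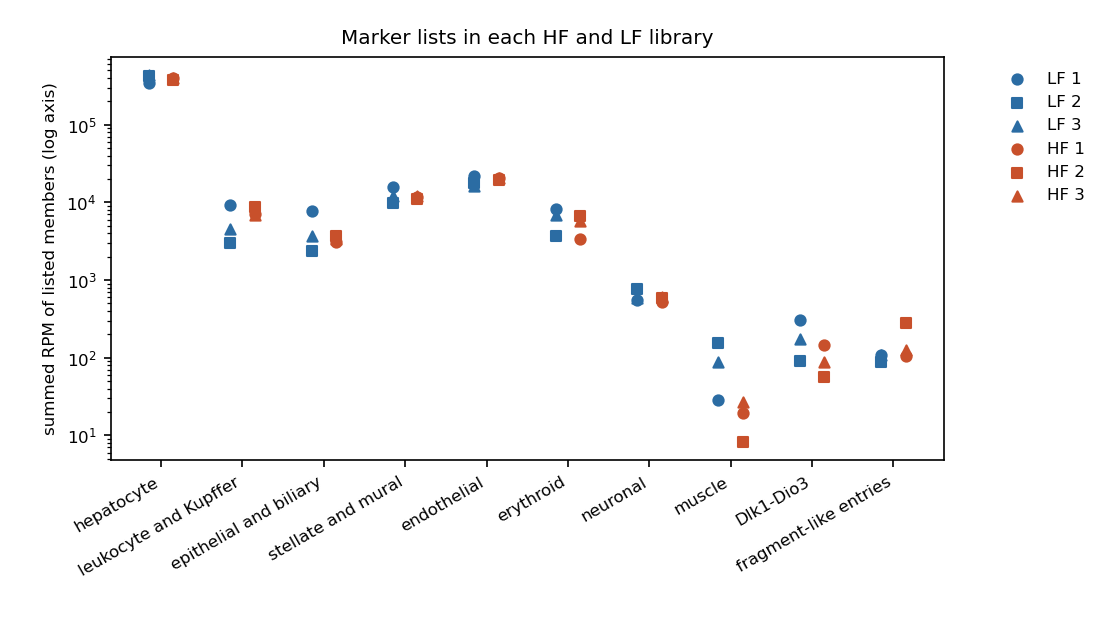
Summed RPM of the listed members of 10 miRNA lists (log axis) in each of the 3 LF and 3 HF libraries, with a symbol for each replicate. LF 1 is the highest of the 6 libraries for leukocyte (9133 RPM) and epithelial miRNAs (7667 RPM), LF 2 for muscle miRNAs (155 RPM) and HF 2 for fragment-like entries (278 RPM).

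The balance of the arms of a hairpin was tested where both arms were measured. Of 100 hairpins none was called (0.0%) and 11 (11%) had an unadjusted p under 0.05 by limma; the 5p and 3p differences had the same sign for 64. The smallest p was that of miR-144, an erythroid hairpin whose 3p arm targets ABCA1. Its 5p arm was at 135, 65.8 and 79.8 RPM in LF and 34.2, 44.0 and 70.8 RPM in HF (-0.90), while the 3p arm stood at 0.09 and turned to -0.19 without LF 2 and to -0.17 without HF 2. The log2 ratio of 5p to 3p went from -3.96 ± 0.13 to -4.95 ± 0.55 (SD, n = 3), a change of -0.99 (SE 0.28, limma adjusted p = 0.138). For miR-21a the ratio changed by -1.21 (SE 0.48, limma adjusted p = 0.329), through the 3p arm. miR-193a changed by -0.69 (SE 0.24, limma adjusted p = 0.307), and miR-450b by 0.69 (SE 0.27, limma adjusted p = 0.329).

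The diet difference was then set beside the same difference in mice under CR and under Ex, which uses 12 other libraries. There 37 miRNAs were called in HF+CR against LF+CR (10.5%) and 29 in HF+Ex against LF+Ex (8.26%). All 24 miRNAs that stood higher at an unadjusted p under 0.05 were also above 0 under CR, where 78.6% of all miRNAs were, and 4 of them were called. Under Ex 16 of the 24 were above 0, where 66.7% of all were, with 3 called in the same direction and 1 in the opposite. Of the 17 lower miRNAs, 10 were below 0 under CR (21.4% of all), where 0 were called in the same direction and 2 in the opposite. Under Ex 9 of the 17 were below 0 (33.3% of all), with 2 called in the same direction and 0 in the opposite. Across the 351 miRNAs the difference without intervention had a Pearson r of 0.25 with that under CR and 0.34 with that under Ex, given as a description.

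The HF minus LF difference itself differed from that under Ex for 3 of 351 miRNAs (0.855%), by the interaction contrast of the same limma fit. miR-148a-3p, 0.63 without intervention, was at -1.41 under Ex, from 34248, 31348 and 28262 RPM in LF+Ex to 13651, 11113 and 10722 RPM in HF+Ex. The groups were apart in both settings, in opposite directions, and the 2 differences differed by 2.04 (SE 0.30, limma adjusted p = 0.00212). miR-33-5p was at 11.8, 12.7 and 12.99 RPM in LF+Ex and 11.8, 6.68 and 8.03 RPM in HF+Ex, a difference of -0.49 (SE 0.26). This differed from that without intervention by 2.07 (SE 0.37, limma adjusted p = 0.00824). Under CR, miR-33-5p was at 16.99, 10.1 and 11.6 RPM in LF+CR and 19.1, 23.8 and 15.7 RPM in HF+CR (0.58, SE 0.26). The difference of 1.01 from the value without intervention did not pass (SE 0.37, limma adjusted p = 0.231).

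The other was miR-17-5p, a growth-promoting miRNA of the miR-17 cluster, at 0.28 without intervention and -0.85 under Ex, with 103, 107 and 97.9 RPM in LF+Ex and 73.2, 52.0 and 47.9 RPM in HF+Ex. The difference of 1.12 (SE 0.24, limma adjusted p = 0.0286) was called in 1 of the 6 fits that left out an HF or LF library, that without LF 1; the highest adjusted p over its alternatives was 0.101. miR-148a-3p and miR-33-5p were called in all 6, none of which left out an Ex library. miR-20a-5p, of the same cluster as miR-17-5p, gave 1.10 (SE 0.27, limma adjusted p = 0.0621) and let-7a-5p gave -0.83 (SE 0.19, limma adjusted p = 0.0532). After size-factor rescaling 8 miRNAs were called in place of 3, miR-148b-3p (1.16) and miR-193a-3p (1.74) among them.

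Against CR the diet difference also differed for 3 miRNAs (0.855%). Both arms of miR-1948, a liver miRNA from an intron of Ttc39c, were among them. miR-1948-3p was at 44.2, 79.8 and 48.7 RPM in LF and 45.1, 33.8 and 35.0 RPM in HF (-0.55, SE 0.25), but at 13.1, 19.4 and 19.0 RPM in LF+CR and 89.7, 86.7 and 58.2 RPM in HF+CR (2.12, SE 0.25). The first pair of groups overlapped and the second did not, and the difference was -2.67 (SE 0.35, limma adjusted p = 4.82e-04). miR-1948-5p gave -2.54 (SE 0.47, limma adjusted p = 0.0124), and this call was lost without HF 3 (limma adjusted p up to 0.0755 over its alternatives). miR-671-5p was at 97.2, 104 and 109 RPM in LF and 118, 146 and 130 RPM in HF (0.34, SE 0.15), and at 53.5, 57.0 and 62.6 RPM in LF+CR and 182, 136 and 133 RPM in HF+CR (1.36, SE 0.15). Its difference of -1.02 (SE 0.22, limma adjusted p = 0.0306) was called in 2 of the 6 fits that left out a library, those without LF 1 and without HF 2. It was also lost with the replicate number as a block (limma adjusted p = 0.0573). After size-factor rescaling miR-1948-3p alone was called (-2.41, limma adjusted p = 0.0330).

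**Figure D5:**
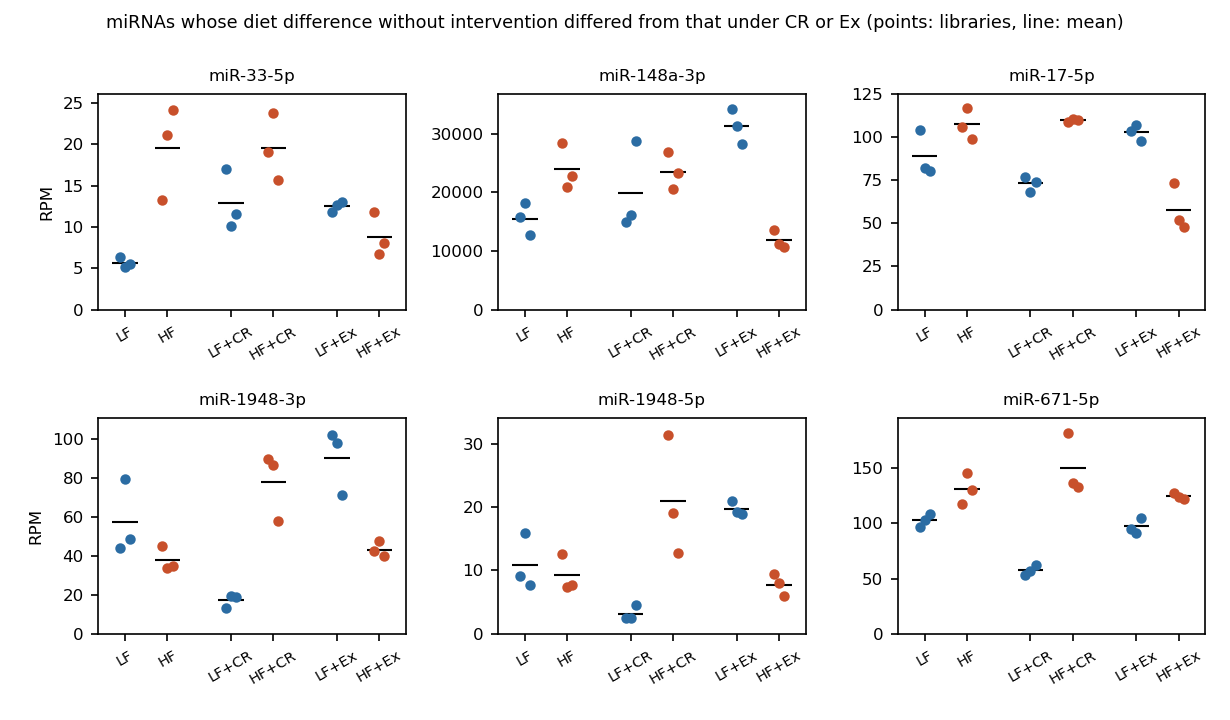
Levels in RPM of the 6 miRNAs whose HF minus LF difference without intervention differed from that under Ex or CR, in each of the 18 libraries (points) with the group mean as a line. miR-148a-3p spans 12748 to 18107 RPM in LF with HF at 20913 to 28463 RPM, but 28262 to 34248 RPM in LF+Ex and 10722 to 13651 RPM in HF+Ex.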

How the data were processed

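Per the labels' protocols, livers were frozen, RNA was extracted with Trizol and enriched for small RNA, and libraries followed standard Illumina chemistry. The authors deposited RPM for 758 mature miRNAs, per the file headers, a read number divided by the library's total. Per the submitters' processing notes, mm10 was used. Not given in the sources used here are the aligner, the counter and the annotation. RPM is relative, so abundant miRNAs shift the rest. Reads carry no molecular identifiers.

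In every library 100% of the values were whole multiples of a step (tolerance 0.001 reads) taken as 1 read. No listed value above 0 was smaller than 2 reads, so a listed 0 may be 1 read. Reads on listed miRNAs were 6.98 to 8.88 M (megareads) in LF and 4.05 to 6.36 M in HF, where 1 read was 0.109 to 0.238 RPM. Depth was lower in HF (exact permutation test, two-sided p = 0.1, the smallest 3 against 3 allows; adjusted p = 0.4 over 4 whole-library values). Pearson r between the 6 libraries was at least 0.968 across the 351 miRNAs.

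log2(RPM + 1) of the 351 miRNAs with 5 RPM in 3 of 18 libraries was fitted with limma 3.58.1 in R 4.3.3 (lmFit, contrasts.fit, eBayes with trend, no robust weights), with all 18 libraries and 1 coefficient per group, two-sided, with Benjamini-Hochberg adjustment; the pseudocount of 1 RPM understates changes of low miRNAs. Seed families (RPM summed over bases 2 to 8) and arm ratios used the same fit. The fit was tested on simulated data. Sequences and positions came from RefSeq, which matched 606 of 758 miRNAs and 288 of the 351, and host genes from GENCODE M21. Clusters join hairpins within 10 kb. Named are called miRNAs, up to 14 with the largest differences in each direction at an unadjusted p under 0.05, the 10 most abundant, list members, and for seeds, arm ratios and interactions the 5 with the smallest p. The comparison, miRNA lists and rules were chosen with earlier results of these data known. Tables used pandas 2.3.3 in Python 3.11.15, and plots matplotlib 3.10.9.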

Additional observations from a re-analysis of the deposited data

Results flagged for a closer look

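These results stood out because the HF minus LF difference without intervention differed from the same difference under another regimen, by the interaction contrast of the limma fit over all 351 miRNAs. The values are differences of log2 differences, and the 4 groups in each contrast share no library. Against Ex they were 2.04 for miR-148a-3p, 2.07 for miR-33-5p and 1.12 for miR-17-5p. Against CR they were -2.67 for miR-1948-3p, -2.54 for miR-1948-5p and -1.02 for miR-671-5p. miR-148a-3p, miR-33-5p and miR-1948-3p passed in each of the 6 fits that left out an HF or LF library. miR-1948-5p passed in 5, miR-671-5p in 2 and miR-17-5p in 1. No CR or Ex library was left out singly, so these fits cannot show how far a call rests on 1 of those libraries. HF+Ex 1 and HF+CR 3 were the shallowest libraries, with 2.38 and 2.90 M reads (megareads), and the part of depth was not tested.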

How the results depend on the processing

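The shallowest of the HF and LF libraries held 4.05 M reads, and the typical unadjusted 95% interval of HF minus LF reached 0.60 to either side. The single call in HF against LF became 0 with a filter of 50 RPM, which leaves out miR-33-5p, and 0 with only HF and LF in the fit. It became 2 after size-factor rescaling and 7 without LF 1 and HF+CR 3 together, all higher (miR-33-5p, miR-155-5p, miR-212-3p, miR-142-3p, miR-142-5p, miR-32-5p and miR-503-5p); leaving out each library in turn gave 0 to 2, the 2 being miR-33-5p and miR-210-3p without HF 1. The 41 at an unadjusted p under 0.05 became 83 without a filter and 26 at 50 RPM, and ranged from 18 to 45 with a library left out. Called seed families numbered 2 after rescaling and 1 to 2 with a library left out. Arm ratios were fitted only with a pseudocount of 5 RPM, without trend, with the replicate block and with each HF or LF library left out. None was called there. For the difference from CR, 3 calls became 1 after rescaling, 6 without LF 1 and HF+CR 3, and 1 to 4 with a library left out. For that from Ex, 3 became 5 without a filter, 8 after rescaling, 6 without LF 1 and HF+CR 3, and 2 to 4 with a library left out. Except where fewer features or libraries entered, the cause was not tested.

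Of 69 miRNAs followed through the alternatives, 63 kept their sign in every alternative. The others turned with a library left out. miR-21a-5p ranged from -0.202 (without LF 3) to 0.215 and was at -0.126 without HF 1 and -0.0205 rescaled. miR-223-3p ranged from -0.0508 (without LF 2) to 0.991, miR-144-3p from -0.190 (without LF 2; -0.168 without HF 2) to 0.431, and miR-1948-5p from -0.412 to 0.0968 (without LF 2). miR-192-5p ranged from -0.0640 (without LF 1, the same with HF+CR 3 also left out) to 0.164, and miR-194-5p from -0.0391 (likewise) to 0.0947, with -0.0191 rescaled. The 4 whole-library differences kept their sign with a library left out, a check chosen after seeing the data.

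Same-numbered HF and LF libraries did not deviate together (correlations of 0.04, -0.12 and -0.06). With 3 correlations, whether the numbers pair the libraries cannot be told. With the replicate number as a block, 1 miRNA was called in HF against LF, 45 had an unadjusted p under 0.05, and 1 seed family, 0 arm ratios, 2 differences from CR (that of miR-671-5p was lost, at an adjusted p of 0.0573) and 3 from Ex were called. The planned edgeR test on reads was not run; voom weights from limma, using reads inferred from the RPM step size, called miR-33-5p alone (1.72, adjusted p = 0.0104).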
